A study of Mus musculus with 6 samples.

Results

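CD3, CD8 and the proximal T cell receptor kinases were described here as 10 genes, taken by symbol from the 15898 genes of the deposited counts: Cd3d, Cd3e, Cd3g, Cd247, Cd8a, Cd8b1, Lck, Zap70, Lat and Thy1. All 10 were present, and all 10 passed the filter on low counts. The question was how IL-10/Fc, a fusion of interleukin-10 to an antibody Fc part, altered the expression programme of terminally exhausted CD8+ T cells inside a tumour. There were 4 libraries from mice given IL-10/Fc beside the tumour (20 µg, 4 doses from day 10) and 2 from mice given phosphate-buffered saline (PBS) on the same schedule. Both groups shared everything else that the labels state. C57BL/6 mice were irradiated (4 Gy), received naive Thy1.1+ PMEL T cells (strain background B6.Cg-Thy1a/Cy with the transgene Tg(TcraTcrb)8Rest/J), and were inoculated with B16F10 melanoma cells. On day 10 they also received activated Thy1.2+ PMEL CD8+ T cells. On day 18, 500 Thy1.1+ PD-1+ TIM-3+ CD8+ cells were sorted per library from the tumour. PMEL cells carry the same transgenic receptor, which recognises gp100 of melanocytes. Whether every sorted cell had only this receptor was not tested. Whether the replicates are different mice is not said in the labels. The p-values thus measure only the spread among these 6 libraries, and some of it may be technical.

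A T cell recognises antigen through the alpha and beta chains of its receptor, which have no signalling part of their own. Signals pass through the CD3 delta, epsilon and gamma chains and the zeta chain, whose tails carry the tyrosine motifs called ITAMs. The coreceptor CD8 binds MHC class I and brings the kinase Lck to the receptor. Lck phosphorylates the ITAMs, Zap70 docks there, and Zap70 phosphorylates the membrane adaptor Lat, on which the downstream enzymes assemble. Thy1 is a surface glycoprotein of mouse T cells.

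Depth was 28235203 to 36941814 counts in the IL-10/Fc libraries and 26738871 and 28774401 in the PBS libraries, and 3 counts equalled at most 0.112 CPM, the count scaled to a common library size. Levels are given as CPM after the trimmed mean of M-values (TMM) scaling. Averaged over the 6 libraries, each of the 10 genes stood above at least 94.6% of the genes in the table. Since CD8 and Thy1.1 were gates of the sort, both groups were selected for cells with these proteins. The sort purity was listed as 99%, so some cells without them may be present. Mitochondrial genes took 2.35% to 2.50% of counts in the IL-10/Fc libraries and 2.39% to 2.46% in the PBS libraries.

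Across the 10 genes, 7 lay higher in every IL-10/Fc library than in either PBS library: Cd3d, Cd3e, Cd3g, Cd8a, Cd8b1, Lat and Thy1. Such a separation with IL-10/Fc higher was seen for 12.1% of all 15477 genes tested. The kinase genes Lck and Zap70 and the zeta chain gene Cd247 overlapped between the groups. The median log2 fold change of the 10 genes was 0.66, against -0.01 over all genes tested. With edgeR's quasi-likelihood test and Benjamini-Hochberg adjustment over all genes, 0 of the 10 passed an adjusted p of 0.05, at a background of 0.00646% of genes called. At an unadjusted p under 0.05 the 7 separated genes passed, where 7.2% of all genes did so on the higher side and 5.52% on the lower side. Limma-voom called 0 of the 10 (background 0.00646%), and DESeq2's Wald test on the same counts called 6 higher, all of the 7 except Cd3e, at a background of 3.44% called higher and 1.62% called lower. The authors' deposited table had adjusted p-values under 0.05 for 5 of them, all higher (Cd3d, Thy1, Lat, Cd3g and Cd8b1). The background there was 3.57% of its genes called higher and 1.72% called lower. In libraries of sorted cells, fewer cells of a type and less RNA per cell cannot be told apart, and every level is relative to the other RNA in the library.

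**Figure D1:**
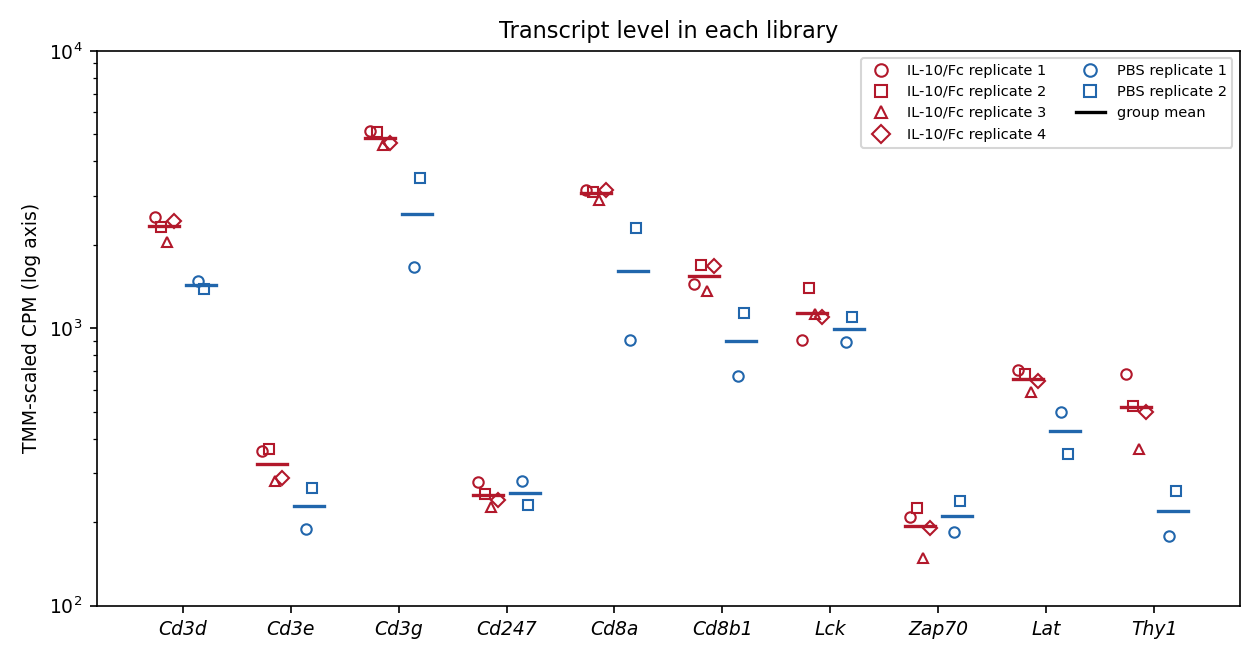
Each point is the TMM-scaled CPM of 1 library on a log axis, red for IL-10/Fc (4 libraries) and blue for PBS (2 libraries), the marker shape giving the replicate number, and each line is a group mean. The red points lie above the blue ones for Cd3d, Cd3e, Cd3g, Cd8a, Cd8b1, Lat and Thy1, and the colours mix for Cd247, Lck and Zap70.

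The 3 CD3 genes lie side by side on mouse chromosome 9 (build GRCm38). Cd3d spans chr9:44981786-44987339 on the plus strand, and Cd3g spans chr9:44969572-44980431 on the minus strand. Their starts face each other across 1354 bases. Cd3e lies 11400 bases beyond the end of Cd3d, at chr9:44998740-45009627 on the minus strand. Cd247, which encodes the zeta chain, lies alone at chr1:165788681-165877277 on the plus strand. The stretches around the start sites of these 4 genes are shown because 3 of the chains lay higher in IL-10/Fc and the zeta chain did not. They run from 250 bases before to 50 after the RefSeq start and come from RefSeq on GRCm38.p6, read 5′ to 3′ on the gene's own strand. Capitals mark matches on either strand to an ETS core (AGGAAG), a RUNX core (TGTGGT), a TCF core (CTTTGA) or an E-box (CAGNTG).
Cd3d, chr9:44981536-44981835, plus strand: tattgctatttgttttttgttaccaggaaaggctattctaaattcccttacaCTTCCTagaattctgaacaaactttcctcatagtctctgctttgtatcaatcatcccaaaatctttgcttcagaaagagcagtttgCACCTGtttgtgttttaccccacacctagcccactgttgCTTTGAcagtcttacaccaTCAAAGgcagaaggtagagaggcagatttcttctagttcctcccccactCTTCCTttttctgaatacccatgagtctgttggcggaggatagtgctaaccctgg
Cd3g, chr9:44980382-44980681, minus strand: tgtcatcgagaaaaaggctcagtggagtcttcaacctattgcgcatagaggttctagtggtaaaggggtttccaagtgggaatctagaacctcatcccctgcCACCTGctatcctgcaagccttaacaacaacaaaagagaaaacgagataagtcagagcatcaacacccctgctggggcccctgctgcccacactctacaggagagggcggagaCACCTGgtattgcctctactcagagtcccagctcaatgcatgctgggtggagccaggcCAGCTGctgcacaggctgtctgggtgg
Cd3e, chr9:45009562-45009861, minus strand: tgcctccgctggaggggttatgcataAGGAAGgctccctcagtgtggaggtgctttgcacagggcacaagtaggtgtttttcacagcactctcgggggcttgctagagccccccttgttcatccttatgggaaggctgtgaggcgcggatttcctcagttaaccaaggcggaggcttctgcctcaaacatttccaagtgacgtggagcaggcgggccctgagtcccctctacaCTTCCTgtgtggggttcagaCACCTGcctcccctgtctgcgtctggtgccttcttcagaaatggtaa
Cd247, chr1:165788431-165788730, plus strand: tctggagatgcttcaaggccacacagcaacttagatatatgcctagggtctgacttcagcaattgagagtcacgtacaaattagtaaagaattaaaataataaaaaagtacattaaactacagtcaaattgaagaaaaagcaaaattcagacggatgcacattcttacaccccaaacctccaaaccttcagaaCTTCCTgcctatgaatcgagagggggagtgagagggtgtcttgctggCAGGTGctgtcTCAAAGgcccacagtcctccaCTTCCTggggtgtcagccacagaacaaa
The ETS core occurred 2 times in the Cd3d window, 2 times in that of Cd3e and 2 times in that of Cd247, and it was not among the letters of the Cd3g window. E-boxes numbered 1 in the windows of Cd3d, Cd3e and Cd247 and 3 in that of Cd3g. The TCF core was present 2 times for Cd3d and 1 time for Cd247. No RUNX core was found in these 4 windows, and no match overlapped another. Of 32817 such windows in the RefSeq table, 35.4% held the ETS core, 51.4% the E-box, 16.0% the TCF core and 16.8% the RUNX core. A match of letters is a description and not a site of binding.

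**Figure D2:**
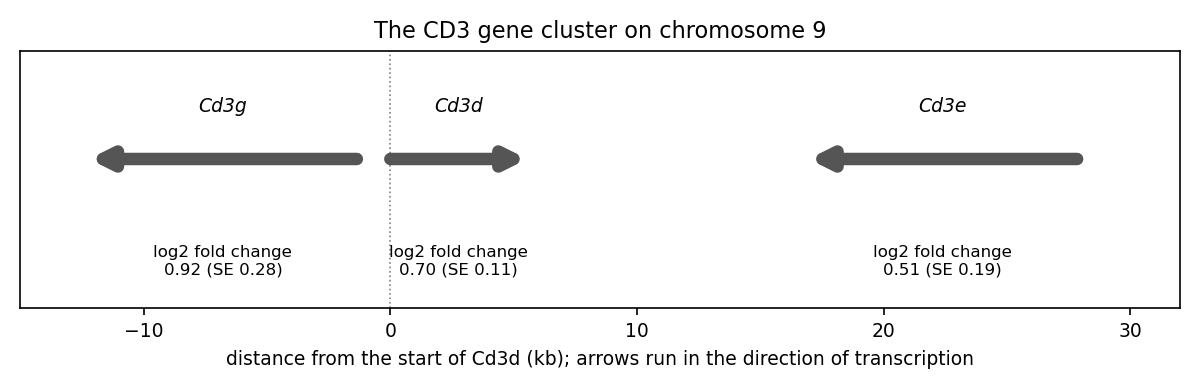
The map places Cd3g, Cd3d and Cd3e by distance in kb from the start of Cd3d, with arrows in the direction of transcription and the log2 fold change of IL-10/Fc over PBS (with SE) under each gene. Cd3g and Cd3d start within 1354 bases of each other, and all 3 fold changes are positive.

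Cd3d, the delta chain, had 2523, 2313, 2039 and 2434 CPM in IL-10/Fc replicates 1 to 4, against 1481 and 1387 CPM in PBS replicates 1 and 2. It was the member with the least spread relative to its difference, since the PBS libraries lay close together and all IL-10/Fc libraries lay above them. The means were 2327 ± 211 CPM in IL-10/Fc (SD, n = 4) and 1434 ± 66.6 CPM in PBS (SD, n = 2). Its log2 fold change was 0.70 (SE 0.11, 1.62-fold), with an unadjusted p of 5.55e-04 (edgeR adjusted p = 0.148). Without any 1 library the log2 fold change stayed between 0.65 and 0.76. The authors' deposited table gave it an adjusted p of 4.31e-05, the smallest among the 10 genes.

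Cd3g, the gamma chain and the most abundant of the 10 transcripts by CPM, had 5128, 5077, 4581 and 4656 CPM in the IL-10/Fc libraries, against 1659 and 3483 CPM in the PBS libraries. The IL-10/Fc libraries were tightly grouped, and PBS replicate 1 was far below PBS replicate 2. The means were 4861 ± 282 CPM in IL-10/Fc (SD, n = 4) and 2571 ± 1290 CPM in PBS (SD, n = 2). Its log2 fold change was 0.92 (SE 0.28, edgeR adjusted p = 0.287). The size of the difference depended on the PBS library: it was 0.48 without PBS replicate 1 and 1.55 without PBS replicate 2, where it was called (edgeR adjusted p = 0.043). A fit with a single PBS library borrows its spread from the IL-10/Fc libraries.

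Cd3e, the epsilon chain, which pairs with both the delta and the gamma chain, had 360.0, 366.9, 280.9 and 287.6 CPM in the IL-10/Fc libraries, against 188.9 and 266.6 CPM in the PBS libraries. The lowest IL-10/Fc library was just above the higher PBS library. At a log2 fold change of 0.51 (SE 0.19, edgeR adjusted p = 0.367), it ranged from 0.28 with PBS replicate 1 left out to 0.78 with PBS replicate 2 left out. An antisense gene shares 135 exonic bases with Cd3e, and the protocol does not mark strand. That gene averaged 0.360 CPM over the 6 libraries.

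Cd247 had 279.9, 252.4, 227.2 and 241.0 CPM in the IL-10/Fc libraries, against 280.5 and 230.5 CPM in the PBS libraries, and the groups overlapped. Its log2 fold change was -0.03 (SE 0.13, edgeR adjusted p = 0.960) and changed sign in 3 of the other settings. Of its 5329 exonic bases, 3007 are shared with Pou2f1 on the opposite strand, so the level of Cd247 may depend on how the authors' counting treated shared bases, a detail not given in the sources used here. Pou2f1 itself averaged 6.31 CPM.

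The coreceptor genes Cd8a and Cd8b1 lie 35932 bases apart on chromosome 6, at chr6:71373427-71379173 and chr6:71322788-71337494, both on the plus strand. Cd8a, the alpha chain, whose tail binds Lck, had 3161, 3097, 2896 and 3144 CPM in IL-10/Fc replicates 1 to 4, against 910.4 and 2292 CPM in PBS replicates 1 and 2. The highest IL-10/Fc library exceeded the lowest by a ratio of 1.09, the narrowest range of the 10 genes in that group. PBS replicate 2 exceeded PBS replicate 1 by a ratio of 2.52, the widest of the 10. Its log2 fold change of 0.94 (SE 0.34, edgeR adjusted p = 0.351) became 0.42 when PBS replicate 1 was left out and 1.76 when PBS replicate 2 was left out (edgeR adjusted p = 0.043). Cd8a missed the threshold in the authors' deposited table (adjusted p = 0.0693) and just passed it with DESeq2's Wald test here (adjusted p = 0.0492).

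The start of Cd8a is shown beside those of the CD3 genes, with the same marks, since this gene had the largest gap between PBS libraries.
Cd8a, chr6:71373177-71373476, plus strand: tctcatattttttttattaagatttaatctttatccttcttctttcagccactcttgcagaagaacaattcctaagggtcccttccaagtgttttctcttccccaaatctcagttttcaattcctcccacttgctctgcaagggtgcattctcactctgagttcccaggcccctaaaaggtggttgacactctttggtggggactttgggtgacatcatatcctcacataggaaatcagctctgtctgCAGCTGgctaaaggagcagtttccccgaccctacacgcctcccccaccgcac
Its capitals are a single E-box at the start itself, with no match to the ETS, RUNX or TCF core. No window for Cd8b1 or Thy1 was used.

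Cd8b1, the beta chain, which marks conventional CD8 T cells, had 1440, 1689, 1363 and 1682 CPM in the IL-10/Fc libraries, against 670.8 and 1135 CPM in the PBS libraries. All IL-10/Fc libraries were higher, and PBS replicate 1 was again the lower of its pair. Its log2 fold change of 0.77 (SE 0.23, edgeR adjusted p = 0.275) became 0.44 when PBS replicate 1 was left out and 1.20 when PBS replicate 2 was. In the authors' deposited table it was called higher with an adjusted p of 0.0311, as was Cd3g with the same value.

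Lck (chr4:129548344-129573641, minus strand), the Src-family kinase that phosphorylates the ITAMs, had 908.0, 1394, 1126 and 1101 CPM in the IL-10/Fc libraries, against 892.5 and 1097 CPM in the PBS libraries. IL-10/Fc replicate 1 lay between the PBS libraries and IL-10/Fc replicate 2 well above them. For Lck the log2 fold change of 0.19 (SE 0.18, edgeR adjusted p = 0.751) became 0.04 without PBS replicate 1, 0.34 without PBS replicate 2 and 0.02 with scaling by library size alone. Zap70 (chr1:36761798-36782818, plus strand), the Syk-family kinase that docks on the phosphorylated ITAMs, had 209.5, 225.8, 148.0 and 190.2 CPM in the IL-10/Fc libraries, against 184.2 and 237.8 CPM in the PBS libraries. IL-10/Fc replicate 3 was the lowest of the 6 and PBS replicate 2 the highest. Zap70 had a log2 fold change of -0.13 (SE 0.20, edgeR adjusted p = 0.865), with -0.30 when PBS replicate 1 was left out and 0.07 when PBS replicate 2 was. These p-values do not show that the kinase genes were equal between the groups.

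Lat (chr7:126363824-126369570, minus strand), the adaptor phosphorylated by Zap70, had 709.6, 683.8, 590.4 and 645.0 CPM in the IL-10/Fc libraries, against 499.3 and 352.4 CPM in the PBS libraries. The groups did not overlap, and here PBS replicate 2 was the lower of its pair, unlike Cd3g, Cd8a and Cd8b1. Lat had a log2 fold change of 0.63 (SE 0.16, edgeR adjusted p = 0.239), and it was the reverse of the CD8 genes in that leaving out PBS replicate 1 gave 0.90 and leaving out PBS replicate 2 gave 0.40. The authors' deposited table gave an adjusted p of 0.0196.

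Thy1 (chr9:44043384-44048579, plus strand) showed the largest fold change of the 10, though its protein was a sort marker in both groups. It had 685.1, 524.4, 367.2 and 498.8 CPM in the IL-10/Fc libraries, against 178.5 and 259.6 CPM in the PBS libraries. The IL-10/Fc libraries spread more widely than for any other member, by a ratio of 1.87 between highest and lowest, yet all lay above both PBS libraries. Thy1 averaged 519 ± 131 CPM in IL-10/Fc (SD, n = 4) and 219 ± 57.4 CPM in PBS (SD, n = 2). The log2 fold change was 1.24 (SE 0.28, 2.37-fold, edgeR adjusted p = 0.206), between 0.997 and 1.54 when any 1 library was left out. In the authors' deposited table its adjusted p was 8.33e-04. The deposited counts do not separate the Thy1.1 from the Thy1.2 allele.

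**Figure D3:**
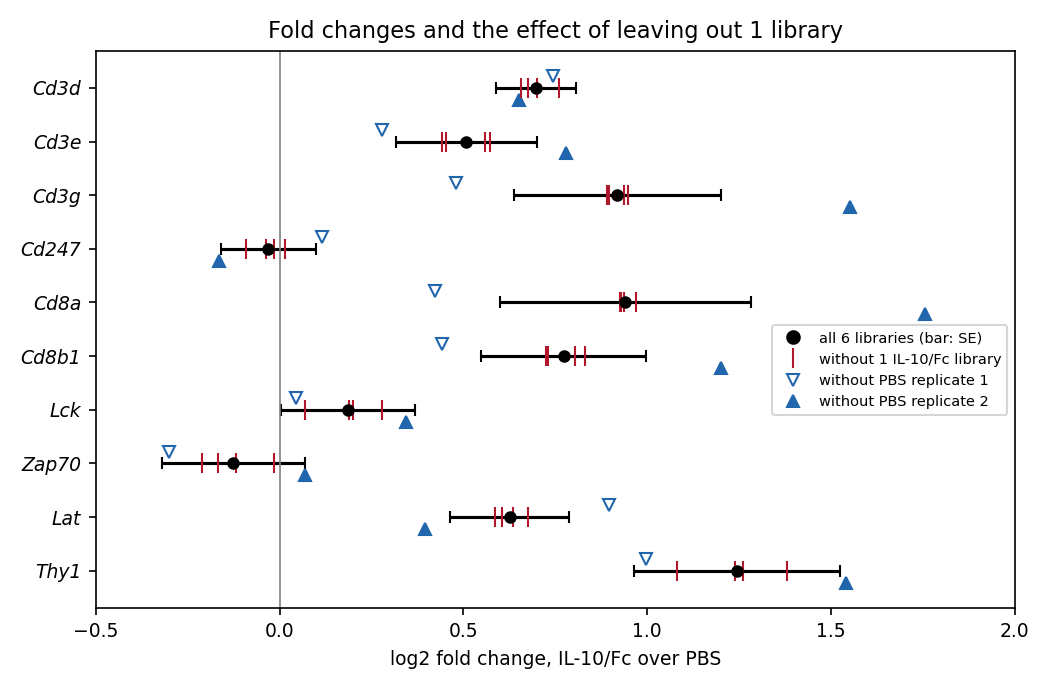
Each black point is the log2 fold change of IL-10/Fc over PBS with its SE from edgeR's fit to all 6 libraries. Red ticks are fits without 1 IL-10/Fc library, open triangles without PBS replicate 1 and filled triangles without PBS replicate 2. Cd3g and Cd8a move most with the PBS libraries, from 0.48 to 1.55 and from 0.42 to 1.76, while Cd3d stays between 0.65 and 0.76.

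Levels of different genes were compared as CPM per kb of exon, with exon lengths from GENCODE M21. In IL-10/Fc libraries the order was Cd3g at 1487 ± 86.2, Cd3d at 1282 ± 116, Cd8b1 at 1041 ± 113 and Cd8a at 845 ± 33.5 CPM per kb (SD, n = 4), followed by Lck, Lat and Thy1 and then by Cd3e, Zap70 and Cd247. Neighbours in this order whose IL-10/Fc libraries overlapped were Cd3d and Cd8b1, Lat and Thy1, Cd3e and Zap70, and Zap70 and Cd247. The lowest level was that of Cd247, at 46.9 ± 4.20 CPM per kb (SD, n = 4) in IL-10/Fc libraries and 48.0 ± 6.64 CPM per kb (SD, n = 2) in PBS libraries. Cd247 shares 3007 of its 5329 exonic bases with Pou2f1, so its last place may depend on how shared bases were counted. In the PBS libraries Cd3d at 790 ± 36.7 and Cd3g at 787 ± 395 CPM per kb (SD, n = 2) were not distinguishable. Union exon lengths count every annotated isoform, so long unused exons lower a gene's value on this scale.

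The balance between transcripts of the complex differed between libraries. The ratio of Cd247 to Cd3d CPM was 0.111, 0.109, 0.111 and 0.0990 in IL-10/Fc replicates 1 to 4, against 0.189 and 0.166 in PBS replicates 1 and 2. Every IL-10/Fc library was below both PBS libraries, as Cd3d lay higher and Cd247 overlapped. Zap70 over Cd3d was likewise lower, at 0.0726 to 0.0976 in IL-10/Fc against 0.124 and 0.171 in PBS. The ratio of Lck to Cd8a, the coreceptor chain that binds it, was 0.287 to 0.450 in IL-10/Fc against 0.980 and 0.479 in PBS, with the highest IL-10/Fc library close to PBS replicate 2. These ratios were chosen with the values of the members known and were not tested.

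Ratios between partner chains overlapped between the groups. Cd8b1 over Cd8a was 0.456 to 0.545 in IL-10/Fc, against 0.737 and 0.495 in PBS. Cd3g over Cd3d was 1.91 to 2.25 in IL-10/Fc, against 1.12 and 2.51 in PBS. In both ratios PBS replicate 1 stood apart from the other 5 libraries on the side of less Cd8a and less Cd3g. Cd3e over Cd3d was 0.118 to 0.159 in IL-10/Fc, against 0.128 and 0.192 in PBS.

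**Figure D4:**
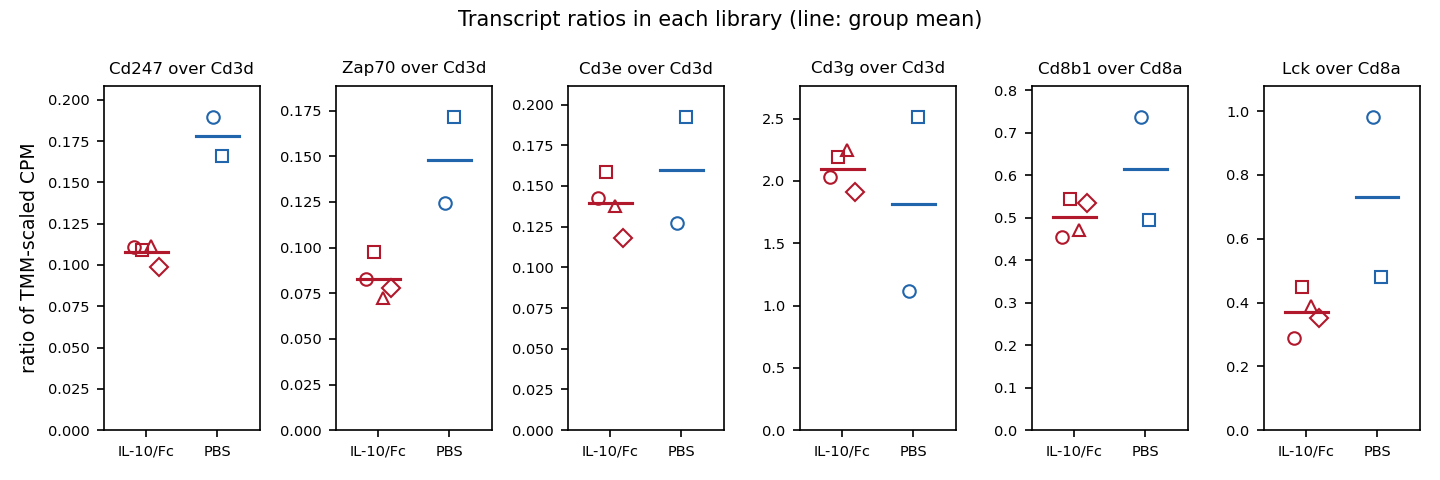
Each panel gives a ratio of TMM-scaled CPM between 2 members in each library, IL-10/Fc in red (4 libraries) and PBS in blue (2 libraries), with lines at the group means, marker shapes by replicate number (circle, square, triangle and diamond in order) and axes from 0. Cd247, Zap70 and Lck are lower relative to Cd3d or Cd8a in every IL-10/Fc library, and the other ratios overlap.

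Together the 10 genes took 1.34% to 1.49% of counts in the IL-10/Fc libraries, against 0.765% and 1.14% in the PBS libraries. PBS replicate 1 was the lowest of the 6 libraries for Cd3e, Cd3g, Cd8a, Cd8b1, Lck and Thy1, and PBS replicate 2 was the lowest for Cd3d and Lat. Among IL-10/Fc libraries, replicate 3 had the lowest sum, at 13620 CPM, against 14880 to 15620 CPM in the other 3. Scaling by library size alone, in place of TMM, moved the median log2 fold change of all genes to -0.18 and that of the 10 genes to 0.49. A change of scaling shifts all genes nearly alike, so the gap between these medians had to stay close to that with TMM.

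The alpha and beta chain constant genes of the receptor itself did not share the separation. Trbc2 had 25110, 25630, 22300 and 23630 CPM in IL-10/Fc replicates 1 to 4, against 18590 and 22500 CPM in PBS replicates 1 and 2, with overlap between the groups. Trac had 1402 to 1752 CPM in IL-10/Fc against 1946 and 991.9 CPM in PBS, and Trbc1 had 2168 to 2527 CPM in IL-10/Fc against 2207 and 2444 CPM in PBS. None of the 3 passed edgeR's quasi-likelihood test adjusted or unadjusted. Their log2 fold changes were 0.23, 0.11 and 0.01, and the values for Trac and Trbc1 turned to -0.07 and -0.16 with scaling by library size alone. The value for Trbc2 was 0.065 with that scaling, 0.10 without PBS replicate 1 and 0.38 without PBS replicate 2. Trbc1 and Trbc2 are near-identical in sequence, so the split of reads between them is uncertain.

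Among 18 regulators of Lck and Zap70, edgeR called 0 after adjustment, with 4 higher and 1 lower at an unadjusted p under 0.05. Over all genes tested, 7.2% passed this on the higher side and 5.52% on the lower side. DESeq2's Wald test called 3 higher (Ptprc, Pag1 and Lime1), at a background of 3.44% called higher. The authors' deposited table also had 3 higher, at a background of 3.57% called higher. Their median log2 fold change of 0.26 became 0.085 without PBS replicate 1 and 0.39 without PBS replicate 2. Ptprc, the phosphatase CD45 that opens Lck for activity, had 1586, 1676, 1343 and 1449 CPM in the IL-10/Fc libraries, against 809.1 and 857.9 CPM in the PBS libraries. Its log2 fold change was 0.86 (SE 0.11, edgeR adjusted p = 0.148). Lime1, a transmembrane adaptor that binds Lck and Csk, had 648.1 to 808.6 CPM in IL-10/Fc against 433.1 and 449.2 CPM in PBS (log2 fold change 0.77, SE 0.12). Both groups were tight and separate for these 2 genes. Separation with IL-10/Fc higher was seen for 12.1% of all genes tested. Pag1, an adaptor that recruits the inhibitory kinase Csk, had 10.0 to 34.1 CPM in IL-10/Fc against 3.97 and 4.58 CPM in PBS. With genes kept only at 20 CPM or more in at least 2 libraries, edgeR called Ptprc (adjusted p = 0.0413) and Lime1 (adjusted p = 0.0423), and none of the 10 members, at a background of 0.737% called higher and 0.268% called lower. The member with the smallest adjusted p there stood at 0.0551.

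Of 20 genes of the Lat signalosome and its adaptors, edgeR called 0 after adjustment, with 3 higher and 1 lower at an unadjusted p under 0.05. The share over all genes was 7.2% higher and 5.52% lower. DESeq2's Wald test called Grb2 and Skap1 higher and Sh2d2a lower, at a background of 3.44% called higher and 1.62% called lower. The authors' deposited table had 2 higher and 1 lower, at a background of 3.57% and 1.72%. The median log2 fold change of 0.24 became 0.12 without IL-10/Fc replicate 2 and 0.15 without PBS replicate 2. By sign alone, 15 of the 20 lay higher and 5 lower. The gene that was lower at an unadjusted p under 0.05 was Sh2d2a, the T cell-specific adaptor that binds Lck. Sh2d2a had 703.3, 988.7, 803.1 and 677.4 CPM in the IL-10/Fc libraries, against 1527 and 1606 CPM in the PBS libraries. The groups did not overlap (log2 fold change -0.98, SE 0.16, edgeR adjusted p = 0.153), as for 1780 of the 15477 genes tested with IL-10/Fc lower. With the stricter filter edgeR called Sh2d2a lower (adjusted p = 0.0413), at a background of 0.268% called lower. Skap1, an adaptor that links the receptor to integrins, had 439.8 to 522.2 CPM in IL-10/Fc against 346.0 and 286.0 CPM in PBS. Grb2, which joins Lat to Ras activation, had 24.0 to 33.7 CPM in IL-10/Fc against 15.7 and 18.0 CPM in PBS.

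Of 12 listed genes that receptor signalling induces, 11 were analysed and edgeR called 0 after adjustment, with 2 lower and 0 higher at an unadjusted p under 0.05. Across all genes 5.52% passed this on the lower side and 7.2% on the higher side. DESeq2's Wald test called 1 lower, Nr4a2 (adjusted p = 0.036), at a background of 1.62% called lower. The authors' deposited table also called it lower (adjusted p = 0.0494), at a background of 1.72%. The median log2 fold change was -0.18, which turned to 0.18 without PBS replicate 1 and ran from -0.27 to -0.02 without any other single library. Nr4a1, an orphan nuclear receptor induced within hours of stimulation, had 26.8 to 34.6 CPM in IL-10/Fc against 81.7 and 37.9 CPM in PBS. Nr4a2, of the same family, had 220.7 to 311.8 CPM in IL-10/Fc against 311.8 and 716.0 CPM in PBS. Cd69, an early activation antigen, had 194.5 to 239.9 CPM in IL-10/Fc against 187.1 and 57.4 CPM in PBS. In each of these 3 genes the PBS libraries differed from each other by more than the IL-10/Fc libraries did.

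Of 11 transcription factor genes known to act on CD3 or CD8 genes or in T cell identity, edgeR called 0 after adjustment, with 4 higher and 0 lower at an unadjusted p under 0.05. The share of all genes was 7.2% higher and 5.52% lower. DESeq2's Wald test called 3 higher, Ikzf1, Bcl11b and Ets1, at a background of 3.44% called higher. The authors' deposited table also had 3 higher, at a background of 3.57%. The median log2 fold change was 0.29, and 0.57 without PBS replicate 1. By sign alone, 8 of the 11 lay higher and 3 lower. The list summed to 574.3 to 756.1 CPM in IL-10/Fc against 424.6 and 839.6 CPM in PBS. The genes named next are those with the smallest p. Ikzf1 (Ikaros) had 75.9 to 113 CPM in IL-10/Fc against 52.1 and 50.1 CPM in PBS, with a log2 fold change of 0.94 (SE 0.18). Bcl11b, required for T cell commitment, had 15.5 to 29.6 CPM in IL-10/Fc against 9.38 and 9.41 CPM in PBS. Ets1, a founding member of the ETS family, had 233.4 to 282.0 CPM in IL-10/Fc against 191.5 and 182.7 CPM in PBS. For all 3 the groups were separate, as for 12.1% of all genes tested on the higher side, with edgeR adjusted p from 0.190 to 0.223.

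PD-1 and TIM-3 were the other gate proteins of the sort. Pdcd1, which encodes PD-1, had 699.5, 1112, 994.5 and 867.2 CPM in the IL-10/Fc libraries, against 1578 and 1286 CPM in the PBS libraries. Every IL-10/Fc library was below both PBS libraries (log2 fold change -0.64, SE 0.19, edgeR adjusted p = 0.285). Such a separation with IL-10/Fc lower was seen for 1780 of the 15477 genes tested. DESeq2's Wald test called Pdcd1 lower (adjusted p = 0.0399), at a background of 1.62% called lower. Its adjusted p in the authors' deposited table was 0.0558. Havcr2, which encodes TIM-3, had 161.3 to 311.5 CPM in IL-10/Fc against 200.1 and 188.7 CPM in PBS and overlapped.

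Of the other genes within 50000 bases of a member, none passed the adjusted test. Ube4a, 3971 bases from Cd3g, averaged 19.6 CPM with a log2 fold change of -0.19, and Rmnd5a, 9460 bases from Cd8a, averaged 16.1 CPM with 0.60. Neither passed (edgeR adjusted p = 0.901 and 0.503). Spns1, 489 bases from Lat, averaged 8.32 CPM with a log2 fold change of -0.49 (edgeR adjusted p = 0.831). All 3 were far less abundant than the members beside them. Closest to Cd8a, at 142 bases, lay the long noncoding RNA gene Gm44174. It had 7.17 to 11.9 CPM in IL-10/Fc against 2.34 and 8.37 CPM in PBS (log2 fold change 0.79, edgeR adjusted p = 0.614). Actr1b near Zap70 (log2 fold change -0.65, edgeR unadjusted p = 0.0155) and Mpzl3 near Cd3e (-0.64, edgeR unadjusted p = 0.0477) lay lower.

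Over the 6 libraries, the profile most like the mean centred log2 CPM of the 4 CD3 chain genes was sought among 4627 other named genes with at least 20 CPM. The smallest root mean square differences were those of Pet100 (0.032), Purb (0.039), Sertad2 (0.047), Cdk2ap2 (0.056) and Vasp (0.058), in log2 units. For comparison, of the 4 chains that make up the mean, Cd3e differed by 0.093, Cd3d by 0.145, Cd3g by 0.314 and Cd247 by 0.321. The mean is thus unlike 2 of its own chains, nearly as much as it is unlike Zap70, at 0.342. The other members ran from 0.220 (Cd8b1) to 0.397 (Cd8a). Pet100 had 60.3 to 71.2 CPM in IL-10/Fc against 41.6 and 50.4 CPM in PBS, and Vasp, an actin regulator, had 42.4 to 55.6 CPM in IL-10/Fc against 32.4 and 39.3 CPM in PBS. The mean CD3 profile itself was 0.32, 0.25, 0.03 and 0.13 in the 4 IL-10/Fc libraries, against -0.52 and -0.22 in the PBS libraries, in log2 units around the mean of the libraries. It has 6 points that share libraries and scaling, and likeness among this many genes is a description.

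Markers of other cell types differed between libraries. Of 15 macrophage and monocyte markers, 14 were tested and 12 lay higher. The 15 summed to 166.5, 391.9, 671.8 and 762.7 CPM in IL-10/Fc replicates 1 to 4, against 291.0 and 433.4 CPM in PBS replicates 1 and 2. Mrc1 was at 0 in both PBS libraries, Itgam in PBS replicate 2, and Cd163 in 3 IL-10/Fc libraries and PBS replicate 2. The 6 analysed dendritic cell and MHC class II genes, of 8 listed, summed to 167.4, 641.4, 1893 and 992.3 CPM in IL-10/Fc replicates 1 to 4, against 166.8 and 287.0 CPM in PBS replicates 1 and 2, and 5 lay higher. The 10 described genes summed to 15400, 15620, 13620 and 14880 CPM in IL-10/Fc replicates 1 to 4, against 6946 and 10740 CPM in PBS replicates 1 and 2. A link between that sum and the marker sums was not tested. Natural killer cells carry Cd247, Lck, Zap70 and Lat transcripts too. Of 7 natural killer markers 5 were analysed and 4 lay higher, with sums of 104.1 to 510.6 CPM in IL-10/Fc against 65.8 and 72.7 CPM in PBS, mostly on Fcer1g and Tyrobp, which myeloid cells share.

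Of 5 gamma-delta T cell genes 4 were analysed and 4 lay higher, summing to 54.7 to 308.7 CPM in IL-10/Fc against 29.7 and 32.2 CPM in PBS. Most of the highest sum was Tcrg-C4, at 285.3 CPM in IL-10/Fc replicate 4. Trdc had 0.209 to 12.8 CPM in IL-10/Fc against 0.713 and 2.68 CPM in PBS. Trdc and Tcrg-C4 overlapped between the groups, and Tcrg-C1 and Tcrg-C2 did not. Among all genes tested, 12.1% were separated in this way with IL-10/Fc higher. B cell genes (2 of 7 analysed, 1 higher) summed to 3.92 to 15.5 CPM in IL-10/Fc against 42.5 and 42.8 CPM in PBS. Genes of CD4 and regulatory T cells (2 of 5 analysed, 1 higher) summed to 17.7 to 56.8 CPM in IL-10/Fc against 10.2 and 47.6 CPM in PBS, nearly all on Ikzf2. Cd79b and Mlana were at 0 in PBS replicate 1, Csf3r in IL-10/Fc replicate 1, Zbtb7b in IL-10/Fc replicate 2, and S100a8 in 3 IL-10/Fc libraries and PBS replicate 2. Neutrophil genes (3 of 5 analysed, the 2 tested both higher) summed to 2.88 to 6.73 CPM in IL-10/Fc against 1.80 and 1.31 CPM in PBS. Melanoma genes (4 of 7 analysed, 3 higher) summed to 4.76 to 9.04 CPM in IL-10/Fc against 0.645 and 6.34 CPM in PBS. Fibroblast and endothelial genes (2 of 5 analysed, the 1 tested lower) summed to 6.59 to 9.87 CPM in IL-10/Fc against 20.4 and 16.6 CPM in PBS. None of the 4 red blood cell genes was analysed here. After adjustment edgeR called 0 of these markers. At an unadjusted p under 0.05 it had 4 macrophage, 3 natural killer, 2 gamma-delta and 1 neutrophil gene higher, and 1 natural killer, 1 B cell and 1 endothelial gene lower. Of all genes tested, 7.2% passed this on the higher side and 5.52% on the lower side. DESeq2's Wald test called 4 macrophage genes (Cd68, Mrc1, Ms4a7 and Itgam), 2 natural killer genes (Klra8 and Fcer1g), Itgax and 2 gamma-delta genes (Tcrg-C1 and Tcrg-C2) higher, and Ighm and Pecam1 lower. The background there was 3.44% called higher and 1.62% called lower. The authors' deposited table had adjusted p-values under 0.05 for the same numbers of genes in each list, among them Fcer1g (4.21e-05) and Tcrg-C2 (5.08e-06). Its background was 3.57% called higher and 1.72% called lower. The part of such cells in the levels of CD3, CD8 and the signalling genes was not tested.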

How the data were processed

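RNA of 500 sorted cells per library was amplified with Smart-Seq2, per the labels' protocols. That method does not mark strand and carries no molecular identifiers. For each library the authors deposited raw counts by gene, as whole numbers, together with a series table that repeats them beside a comparison of the groups. That deposited table gives log2 fold changes with standard errors, p-values with adjusted p-values, a mean of normalized counts (a signal) and a Wald statistic (a score). The submitters' processing notes name the build GRCm38 (mm10) and, as tools, TopHat2 2.1.1, Bowtie2 2.2.9, Trimmomatic, DESeq2, Cuffdiff and Cufflinks 2.2.1. The read counter was not given in the sources used here. The 15898 listed genes have a mean normalized count of at least 6.77 in the deposited table, and totals per library cover only them. The PBS column numbers differ from the titles, so counts were read from each library's own file.

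Genes were kept with filterByExpr by group (15477), scaled by TMM (factors 0.950 to 0.983 in IL-10/Fc and 1.10 and 1.06 in PBS), and tested two-sided with edgeR 4.0.16's quasi-likelihood test with the robust option and group as the sole term, in R 4.3.3. Adjustment was by Benjamini-Hochberg over all genes at 0.05. An SE is the log2 fold change over the root of F. The test was run first on simulated data with larger changes than those of the 10 genes and less spread than in these libraries. That run does not measure how well the test finds changes here. Limma 3.58.1 and DESeq2 1.42.0 served as alternatives, beside other scaling and filters, a fit without the robust option, a replicate block, and fits that leave out 1 library in turn. Exon lengths came from GENCODE M21 (15846 genes matched), and promoter windows from RefSeq on GRCm38.p6 (8 of 10 genes matched). The floor of 3 counts covers counting error only. The members, lists and motifs were chosen with earlier results of these data known. Named genes were the 10 members, up to 3 genes with the smallest p of each of 5 pathway lists, Pdcd1 and Havcr2, and the 5 nearest profiles; neighbouring genes and Pou2f1 were named after their values were seen. Markers of 10 other cell types were given by list.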

Additional observations from a re-analysis of the deposited data

Results flagged for a closer look

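The share of Cd247 among the CPM of the 4 CD3 chain genes was 3.38% in IL-10/Fc replicate 1, against 3.15% to 3.19% in the other 3 IL-10/Fc libraries. That library lay far from the rest of its group relative to the group's range, which is narrow. In the PBS libraries the share was 7.77% and 4.29%. Chance alone singles out about 1 in 20 groups in this way, and 52 groups were checked.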

How the results depend on the processing

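There were 2 PBS libraries, which differed by a ratio of up to 2.52 for a member. The median log2 fold change of the 10 genes was 0.66 with all libraries and 0.43 to 0.72 with any 1 left out, and the number of members called was 0 to 2 (2 without PBS replicate 2). The number of all genes called was 0 to 16 when 1 library was left out. It was 1 with all libraries, 757 with DESeq2's Wald test (6 members), 60 with at least 20 CPM in 2 libraries, and 0 with scaling by library size only, without the robust option and with the replicate block. In those last 3 settings 0 members were called.

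The labels do not say whether the replicate numbers pair the samples. The deviations of same-numbered libraries from their group means correlated across genes at 0.062 for replicate 1 and 0.015 for replicate 2. Differently numbered libraries gave -0.062 to 0.036. With 2 PBS libraries these deviations mirror each other, so the correlations cannot show whether libraries were paired. With the replicate block the median of the 10 genes was 0.74, 2 of the IL-10/Fc libraries lacked a PBS partner, 1 residual degree of freedom was left, and Cd247 (0.064) and Zap70 (0.055) changed sign, as did the median of the genes that receptor signalling induces (0.153). With 1 library left out, Cd247 ranged from -0.165 to 0.116 (positive without IL-10/Fc replicate 3, at 0.015, and without PBS replicate 1) and Zap70 from -0.30 to 0.07 (positive without PBS replicate 2). The other 8 members kept a positive log2 fold change in every setting tried. For genes outside the 10, the same settings were added after seeing the data. With library size only, Trac turned to -0.071 and Trbc1 to -0.16, and with at least 20 CPM in 2 libraries Trbc1 turned to -0.01. With 1 library left out, Trac ranged from -0.296 to 0.674 (negative without PBS replicate 2), Trbc1 from -0.062 to 0.086 (negative without IL-10/Fc replicate 2 or PBS replicate 1) and Havcr2 from -0.043 to 0.296 (negative without IL-10/Fc replicate 1). The cause was not tested.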
